A study of Mus musculus with 3 samples.

Results

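Of the 36823 gene rows that the expression tables of mouse brain, liver and testis have in common, 3240 covered at least 100 and under 200 bp of the genome. These rows were chosen by their annotated position alone, on the mm9 build, without the mitochondrial chromosome and without an interval each of chromosomes 7 and 12, and no expression value entered the choice. All 3 libraries came from male C57BL/6 mice of 11 weeks with no treatment named in the labels: 1 of brain, 1 of liver and 1 of the whole testis. Each was a strand-specific library of polyadenylated RNA, read in 76 cycles from 1 end in 3 lanes. With 1 library per tissue no difference below has a replicate check, no test was run, and the intervals are those deposited with each value, which cover the estimate within a library only. A row that is low in a whole organ may have fewer cells of a type that makes it or less of it per cell, and these cannot be told apart. By identifier, 937 rows were small nucleolar RNAs (snoRNAs), 903 spliceosomal RNAs (snRNAs), 233 microRNA precursors, 223 ribosomal RNAs other than those of the array on chromosome 8, 140 processed pseudogenes and 27 small Cajal body RNAs (scaRNAs), and 698 rows had no match in the annotation used for names.

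Spliceosomal RNAs are the RNA cores of the particles that recognise intron ends and the branch point: U1 pairs with the 5′ splice site, U2 with the branch point, and U11 and U12 do the same work for the rare minor class of introns. 5S ribosomal RNA belongs to the large ribosomal subunit and is made by RNA polymerase III from tandem gene arrays, together with many scattered copies that are mostly regarded as pseudogenes. Nucleolar RNAs guide the chemical modification of ribosomal RNA, box C/D members for methylation and box H/ACA members for pseudouridylation, and most are cut from the introns of longer host genes. None of these RNAs is known to carry a long poly(A) tail in its mature form, whereas the libraries were labelled as polyadenylated RNA.

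The sequences shown first are those of the members whose levels are described at greatest length, with the letters that define each family in capitals. They are the transcripts of GENCODE M21 (GRCm38), found by gene identifier, written 5′ to 3′ as DNA, and the positions in the tables are given on mm9. Rnu2-10 (chr11:101519552-101519742, plus strand) is a U2 gene, and its capitals mark the branch point arm GTAGTA and the letters ATTTNTG of the site that the ring of Sm proteins binds. Gm23238 (chr19:18807231-18807394, plus strand) carries the sequence of the U1a form and Rnu1b6 (chr3:96263947-96264112, minus strand) that of U1b, a U1 variant; their capitals mark the 5′ splice site arm ACTTACCTG and the same Sm letters. Rnu12 (chr15:82980074-82980224, plus strand) is the U12 gene of the minor spliceosome, with the Sm letters in capitals.
Rnu2-10: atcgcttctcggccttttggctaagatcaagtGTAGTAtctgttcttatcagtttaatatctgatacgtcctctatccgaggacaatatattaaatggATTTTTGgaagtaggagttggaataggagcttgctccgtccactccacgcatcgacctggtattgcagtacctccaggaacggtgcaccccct
Gm23238: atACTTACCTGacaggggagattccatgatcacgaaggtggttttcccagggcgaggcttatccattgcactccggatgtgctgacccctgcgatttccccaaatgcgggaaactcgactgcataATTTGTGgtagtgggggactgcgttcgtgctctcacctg
Rnu1b6: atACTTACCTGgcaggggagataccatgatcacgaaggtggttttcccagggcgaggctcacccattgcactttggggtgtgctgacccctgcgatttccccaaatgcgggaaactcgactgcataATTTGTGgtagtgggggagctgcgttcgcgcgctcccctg
Rnu12: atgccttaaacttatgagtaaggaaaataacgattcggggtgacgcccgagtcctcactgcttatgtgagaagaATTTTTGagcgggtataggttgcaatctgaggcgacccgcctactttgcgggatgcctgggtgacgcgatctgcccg

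Rny1 (chr6:47738068-47738179, minus strand) and Rny3 (chr6:47731623-47731724, plus strand) are Y RNAs, small cytoplasmic RNAs bound by the Ro60 protein, and their capitals mark the run of T at which RNA polymerase III stops. Snord118 (chr11:68886929-68887063, plus strand), the U8 nucleolar RNA that takes part in maturation of the large-subunit ribosomal RNAs, is shown with its box C letters TGATGA. Gm24451 (chr2:130101973-130102105, plus strand, inside Nop56) and Snora61 (chr4:131866155-131866284, plus strand, inside Snhg12) end in the box H/ACA pattern, with the ACA that stands before the last 3 bases in capitals.
Rny1: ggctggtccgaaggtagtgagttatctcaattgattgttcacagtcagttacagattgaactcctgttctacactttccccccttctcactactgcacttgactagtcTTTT
Rny3: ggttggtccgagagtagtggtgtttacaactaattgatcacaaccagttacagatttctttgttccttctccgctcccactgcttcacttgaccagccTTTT
Snord118: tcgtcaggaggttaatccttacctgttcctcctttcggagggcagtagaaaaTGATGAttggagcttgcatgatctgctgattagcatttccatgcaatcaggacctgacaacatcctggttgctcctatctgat
Gm24451: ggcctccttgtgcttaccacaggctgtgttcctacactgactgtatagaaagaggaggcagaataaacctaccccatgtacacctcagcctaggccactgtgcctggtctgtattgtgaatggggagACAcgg
Snora61: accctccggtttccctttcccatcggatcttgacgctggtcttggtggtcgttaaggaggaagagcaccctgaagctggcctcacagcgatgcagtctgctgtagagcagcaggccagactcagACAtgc

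Most members were not seen in any library: 2657 of 3240 (82.0%) were listed at 0 FPKM (fragments per kilobase of transcript, scaled to the mapped fragments, a level per length) in all 3, 583 were above 0 in at least 1, and 214 in every library. At 1 FPKM or more stood 429 members in the brain library, 301 in that of liver and 373 in that of testis, that is 13.2% (exact 95% binomial interval 12.1 to 14.5), 9.29% (8.31 to 10.3) and 11.5% (10.4 to 12.7) of the members. The same minimum was reached by 40.3%, 30.3% and 42.9% of all rows, and by 44.6%, 34% and 48.1% of rows of 200 bp or more, so a smaller share of the short rows was detected in each library. The tables hold no read counts, but the width of a deposited interval implies the number of fragments behind a value, and 85.5% of the members' values above 0 in brain, 91.6% in liver and 94.2% in testis then came out as whole fragments within 0.1. At least 10 implied fragments lay behind 215 members in brain, 132 in liver and 152 in testis, where 49.1%, 41.9% and 54.3% of all rows and 55.7%, 48% and 62.3% of rows of 200 bp or more had as many. The 232 members with 10 fragments in at least 1 library are the ones whose levels are described, and 110 of them had 10 in all 3. Many rows repeat each other: the 583 members above 0 held 461 different sets of values, and 58 of the 232 had the same 3 values as another member.

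A high FPKM of a short row can rest on few fragments. In brain 1 implied fragment was worth 20.4 FPKM at a span of 100 bp and 0.546 FPKM at the longest, a 37.3-fold change over a 1.99-fold change in span, and the plot of FPKM per fragment by span shows the same slope in liver and testis. Levels per length are therefore given here together with their fragments. The members held 19.5% of the FPKM sum of brain, 8.70% of liver and 12.2% of testis, but 2.30%, 0.0636% and 0.186% of the implied fragments. Rows of equal values were each counted in these shares, and whether they hold the same reads was not tested. Of the members above 0, 6 departed from the slope by 1.5 times or more in some library: Gm14539 and Gm14567, whose values were 7.39 to 10.7 times the usual FPKM per fragment, Gm24536, Gm26473, and Gm22333 and ENSMUSG00000083189, each with an estimate marked as failed. At the edges of the size range, 1 of 43 rows of 100 bp was above 0 in each library and 1 of 4 rows 1 bp under 200 bp, beside 2, 2 and 1 of 32 rows of 99 bp and 4, 4 and 5 of 6 rows of 200 bp in brain, liver and testis.

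**Figure D1:**
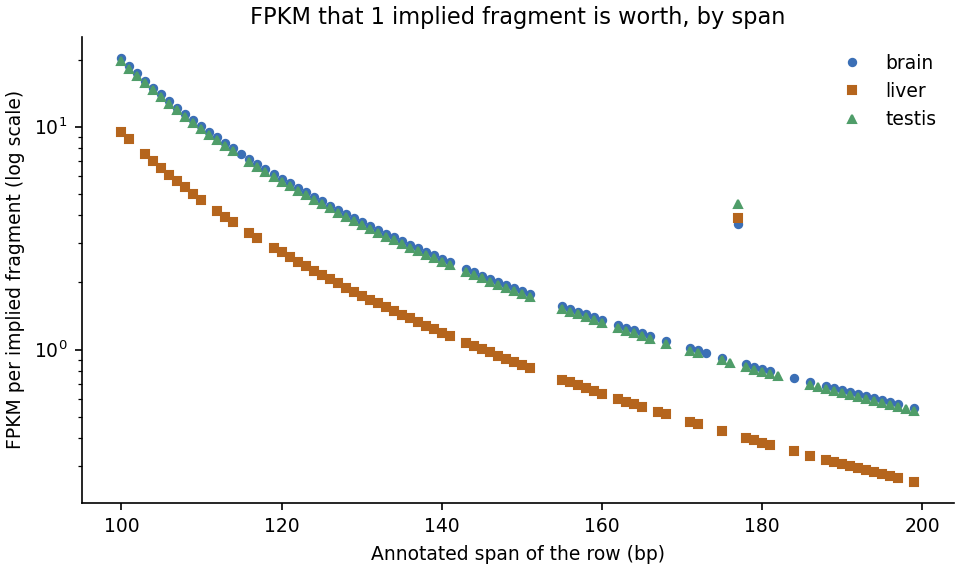
FPKM that 1 implied fragment is worth (log scale) against the annotated span in bp, with 1 point per span and library (median over the members of that span above 0). The value falls 37.3-fold from the shortest to the longest span in each library, and liver lies lowest (9.51 FPKM per fragment at 100 bp, against 20.4 in brain and 19.8 in testis); the points at 177 bp that stand above the line are set by Gm14539 and Gm14567.

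Where members passed the size rule between tissues, brain was mostly the higher library. Calls needed a difference of 4-fold or more on log2(FPKM + 1), a scale that understates the difference of low rows, and deposited intervals that did not overlap. In testis against brain 21 members were higher and 160 lower (181 of 3240, 5.59%), where 18.2% of all rows were called (11% higher and 7.19% lower). In testis against liver 117 were higher and 15 lower (132, 4.07%), where 19% of all rows were called (15.2% higher and 3.82% lower). In brain against liver 189 were higher and 6 lower (195, 6.02%), where 11.9% of all rows were called (9.14% higher and 2.79% lower). Among rows of 200 bp or more the called shares were 20% (12.7% higher and 7.32% lower), 21.5% (17.2% and 4.35%) and 12.7% (9.48% and 3.2%) in the same pairs. The share of members called was thus below that of longer rows in each pair and direction when rows listed at 0 were counted. At 1 FPKM or more in either library, 181 of 528, 132 of 451 and 195 of 480 members were called in the same order of pairs. Among longer rows so filtered it was 6364 of 18332, 6851 of 16929 and 4032 of 15298. Members then had the larger share in brain against liver. Lower in testis than in brain were 160 of 528 members and 2329 of 18332 longer rows. Without the demand on intervals 19.4%, 20.2% and 12.9% of all rows and 20.6%, 22.2% and 13.1% of the longer rows would be called. Among members at 1 FPKM or more in either library the median difference on the log2(FPKM + 1) scale was -2.22 (testis minus brain), 1.78 (testis minus liver) and 2.96 (brain minus liver), beside 0.11, 1.18 and 0.91 over all rows so filtered. These medians describe filtered rows only: over all members they were 0.

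These directions hold for FPKM as deposited and depend on the scale between libraries. Summed FPKM came to 14084700 (brain), 1330740 (liver) and 2043320 (testis), and rows under 100 bp alone made 76.5% of the brain sum. Scaled to equal FPKM sums, testis against brain gave 64 members higher and 34 lower, testis against liver 81 and 18, and brain against liver 110 and 46. Scaled so that the median member with 10 fragments in all libraries had a ratio of 1, the counts were 76 and 25, 46 and 48, and 54 and 90 in the same order of pairs. Scaled by the median ratio of rows at 1 FPKM in all libraries, they were 21 and 160, 79 and 18, and 172 and 6, and scaled to the protein-coding FPKM sum 18 and 180, 120 and 13, and 216 and 6. Of 209 described members with values above 0 in brain and testis, 176 were higher in brain as deposited and 62 of them turned to testis with equal FPKM sums. Of 194 with values in brain and liver, 183 were higher in brain and 74 turned to liver. Described members were admitted by 10 fragments in any library, most often reached in brain, so nothing is read from these majorities as deposited. On log2 and before the pseudocount, these scalings moved every difference by 2.79 (equal FPKM sums), 3.21 (median member), 0.03 (median ratio) and -0.72 (protein-coding sum) for testis minus brain. For brain minus liver the shifts were -3.40, -5.39, -0.75 and 0.83, and for testis minus liver -0.62, -2.18, -0.72 and 0.11. With equal FPKM sums, a member turns from brain to testis where its deposited ratio is below 6.89, and from brain to liver where it is below 10.6, and every direction named below is to be read with these limits.

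By class, 63 of 937 nucleolar RNAs (6.72%) were lower in testis than in brain and 2 (0.213%) higher, where 7.19% of all rows were lower and 11% higher. This and the class shares below count rows listed at 0. So counted, the share lower lay near that of all rows and the share higher below it. At 1 FPKM or more in either library, 63 of 151 nucleolar RNAs were lower, against 2648 of 19124 of all rows, a larger share. Of 903 spliceosomal RNAs 16 (1.77%) were lower and 3 (0.332%) higher, both under the shares of all rows. Of these 903, 103 were at 1 FPKM or more in either library. Of 698 rows without a match 69 (9.89%) were lower and 3 (0.43%) higher. Of 140 processed pseudogenes 3 (2.14%) were lower and 8 (5.71%) higher, both under the shares of all rows with more higher than lower as among all rows. In testis against liver, where 15.2% of all rows were higher and 3.82% lower, 20 spliceosomal RNAs (2.21%) were higher and 3 lower, and 3 nucleolar RNAs (0.32%) were higher and 5 (0.534%) lower. In brain against liver, where 9.14% of all rows were higher and 2.79% lower, 65 nucleolar RNAs (6.94%) were higher and 1 lower, 22 spliceosomal RNAs (2.44%) were higher and 2 lower, and 84 rows without a match (12.03%) were higher and 1 lower. The rows without a match include the 42 rows of the chromosome 8 array described below, 25 of them of equal value. Without that array, 120 members of all classes were lower in testis than in brain instead of 160. Higher in brain than in liver were then 147 instead of 189. The shares of rows without a match thus rest in part on the array. The highest library was brain for 186 of the 232 described members, testis for 35 and liver for 11. These 232 were admitted by 10 fragments in any library, which 215 reached in brain, 132 in liver and 152 in testis (nucleolar RNAs 63, 25 and 15), so the choice itself favours members high in brain and nothing is read from that count.

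U2 stood highest among the spliceosomal RNAs and its copies differed by the letters they carry. Rnu2-10 was at 25341 FPKM in brain, 218 FPKM in liver and 2291 in testis, on 39439.9, 727 and 3672 implied fragments. Brain was 11.1-fold above testis and 116-fold above liver, and with equal FPKM sums 1.60-fold and 11.0-fold above them. Gm23971, Gm24950 and Gm23849, of the same 191 bases, had exactly these values, so the level of any single copy is uncertain and only the level of the sequence is measured. These 4 lie with Gm26316 between Tmem106a and Arl4d on chromosome 11, where RefSeq also lists 5 spliceosomal RNA genes.

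The other U2 copies carry substitutions against Rnu2-10, with positions counted from 1 at the 5′ end. Gm26316 differs by C170T and was at 25069.6 FPKM in brain, 217 FPKM in liver and 2269 in testis, close to Rnu2-10, with which it shares 94 of its 116 windows of 76 bases. Gm23444 differs by G109C, shares 40 windows with Rnu2-10, and was at 20669, 183 and 2030.0 FPKM. All its 116 windows are found among 11 other genes, so its level is not its own alone to read. Gm25813 carries C78T and G131C, shares 2 windows, and was at 152, 3.601 and 21.2 FPKM on 236, 12 and 34 fragments. Gm22973, with 9 substitutions and no shared window, turned the order round: 18.0 FPKM in brain, 4.80 FPKM in liver and 40.5 in testis on 28, 16 and 65 fragments. Its brain and testis intervals, 11.2 to 24.8 and 30.5 to 50.6 FPKM, did not overlap, but the 2.25-fold difference stayed under the 4-fold rule. The part that shared windows have in the levels of these copies was not tested.

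The U1a and U1b forms differed in how far brain stood above testis, and some but not all U1b rows had testis above brain. Gm23238, the U1a copy shown above, was at 2083 FPKM in brain, 13.6 FPKM in liver and 144 in testis on 1711, 24 and 122 fragments, 14.4-fold higher in brain than in testis (2.10-fold with equal FPKM sums). Rows of the same 164 bp without a match lie between Sptssa and Snx6 on chromosome 12 (7 rows) and between Rad51c and Mtmr4 on chromosome 11 (2 rows), and RefSeq lists Rnu1a1 in the second interval. They stood at 1557 to 2964 FPKM in brain, 4.55 to 16.5 in liver and 111 to 222 in testis, with brain 13.3-fold to 14.02-fold above testis. All 9 were thus high in brain and low in liver, like Gm23238.

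Rnu1b6, which differs from Gm23238 by 12 edits over 166 bases (92.8% identity) and shares no window of 76 bases with it, was at 18.5 FPKM in brain and 48.2 in testis on 16 and 43 fragments, and listed at 0 in liver. Brain was the lower of the 2 here, at 0.383 times the testis level, and the intervals of 9.24 to 27.7 and 33.5 to 62.9 FPKM did not overlap, though the difference stayed under 4-fold. RefSeq lists Rnu1b1, Rnu1b2 and Rnu1b6 between Fcgr1 and Txnip on chromosome 3, where 8 rows of 165 to 166 bp lie, Rnu1b6 among them. All 8 were listed at 0 in liver, and they ranged from 11.9 to 123 FPKM in brain and from 28.8 to 56.4 in testis. Of the 8, 4 were higher in testis, but 3 of these 4 held the same values, those of Rnu1b6. The rows higher in brain were 2 pairs of equal values. All 91 windows of Rnu1b6 are found among 9 other genes, so its level is not its own alone to read. Gm22042 on chromosome 4, with 3 edits to Rnu1b6 (98.2% identity), was at 115 FPKM in brain, 0 FPKM in liver and 43.7 in testis on 97 and 38 fragments. Brain was at most 2.69-fold above testis for any of the 8 rows, beside at least 13.3-fold for the 164-bp rows. With equal FPKM sums every one of the 8 would stand higher in testis.

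The minor spliceosome RNAs followed U1a and U2. Rnu12 was at 3601 FPKM in brain, 21.5 FPKM in liver and 267 in testis on 2033, 26 and 155 fragments, so that brain was 13.5-fold above testis and 167-fold above liver. A second U12 copy, Gm24525 on chromosome 5, differs from it by C11A, G16A, C31T, G113A, G137A and C150A and was lower throughout, at 407, 1.65 and 43.0 FPKM. Rnu11 was at 178 FPKM in brain on 56 fragments, and at 7.44 and 9.28 FPKM in liver and testis on 5 and 3 fragments, too few to order those tissues. Rows without a match near other spliceosomal RNA genes of RefSeq had the same order. The 2 rows of 116 bp between Igdcc3 and Parp16 on chromosome 9, where RefSeq lists the U5 gene Rnu5g, were at 8469 and 8519 FPKM in brain, at 20.1 in liver and at 446 and 466 in testis, with brain at least 18.2-fold above testis. On chromosome 4, 3 rows of 116 bp between Kif2c and Tmem53 ranged from 71.7 to 3033 FPKM in brain, from 0 to 16.7 in liver and from 27.8 to 355 in testis. On chromosome 5, 2 rows of 141 bp between Pla2g1b and Pxn were at 305 and 409 FPKM in brain, at 2.30 or less in liver and at 45.4 and 47.8 in testis.

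U6, the catalytic RNA of the spliceosome, made up most of the spliceosomal rows by number but few of the fragments. Of 70 members at least 95% identical to the reference U6 sequence, 11 were above 0 in brain, 1 in liver and 4 in testis, and none had 10 fragments in any library. A further 458 members at 70 to 95% identity gave 19, 14 and 19 above 0, with 2 reaching 10 fragments in each library. The Sm letters ATTTNTG, searched on the transcript strand only, were in 16 of 27 spliceosomal rows with 10 fragments (59.3%) and in 172 of 876 with fewer (19.6%), where 9.76% of all matched members held them. A tail of 4 T, the mark of an RNA polymerase III gene, was in 2 of the 27 (7.41%) and in 244 of the 876 (27.9%), and in 10.03% of all matched members. The 2 groups differ in family: 8 U2 copies had 10 fragments in brain, 4 of them of identical sequence, while nearly all U6-like rows had fewer. Both contrasts therefore cannot be told apart from family make-up and are a description only.

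**Figure D2:**
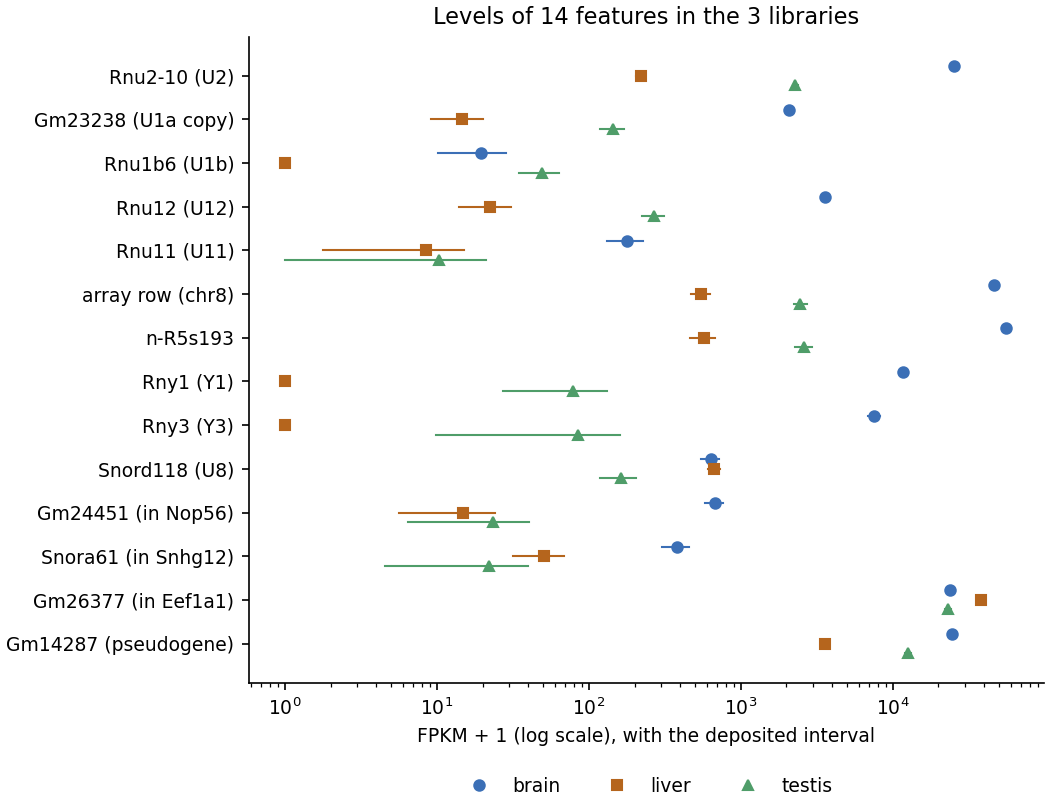
FPKM + 1 on a log scale for 14 features, with 1 point per library and the deposited interval as a line; a point at 1 is a row listed at 0. Brain lies to the right for the U2, U1a, U12, 5S and Y RNA rows, testis lies to the right of brain for Rnu1b6 (48.2 against 18.5 FPKM), and liver lies highest for Gm26377 (38367 FPKM).

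The largest block of members was an array of 5S-sized rows. Between Gas8 and Rhou on chromosome 8, from 126062686 to 126147645, lay 42 rows without a match, 41 of them of 119 bp and a median of 1703 bp apart, in an interval where RefSeq lists 48 ribosomal RNA genes. All 42 were above 0 in brain and testis and 40 in liver. Of these, 25 rows had the same values to the last digit, 46363 FPKM in brain, 545 FPKM in liver and 2469.5 in testis on 7545, 190.0 and 414 fragments, and the 42 rows held only 11 different sets of values. The level of a single gene copy can thus not be read from the table. At the shared value brain was 18.8-fold above testis and 85.0-fold above liver, and testis 4.53-fold above liver; with equal FPKM sums these became 2.72, 8.03 and 2.95. The array alone held 8.78% of the FPKM sum of brain, 1.09% of liver and 3.23% of testis, which was 45.0%, 12.5% and 26.6% of what the members held. Each of the 25 equal rows was counted in these sums, and whether they hold the same reads was not tested.

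The other 17 rows of the array ran below the shared value, down to 30.7 FPKM in brain. The row ENSMUSG00000075740 came nearest to it, at 32015, 324 and 1449.5 FPKM on 5209.8, 113 and 243 fragments. A set of 3 rows was at 5727, 103 and 447 FPKM in brain, liver and testis, and 5 rows at 3601 or 3533 in brain had 14.4 in liver and 143 in testis. The 2 rows at 30.7 and 36.9 FPKM in brain had 5.97 in testis and were listed at 0 in liver. The order brain, testis, liver held for each of these values, as the plot of the array by distance shows.

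**Figure D3:**
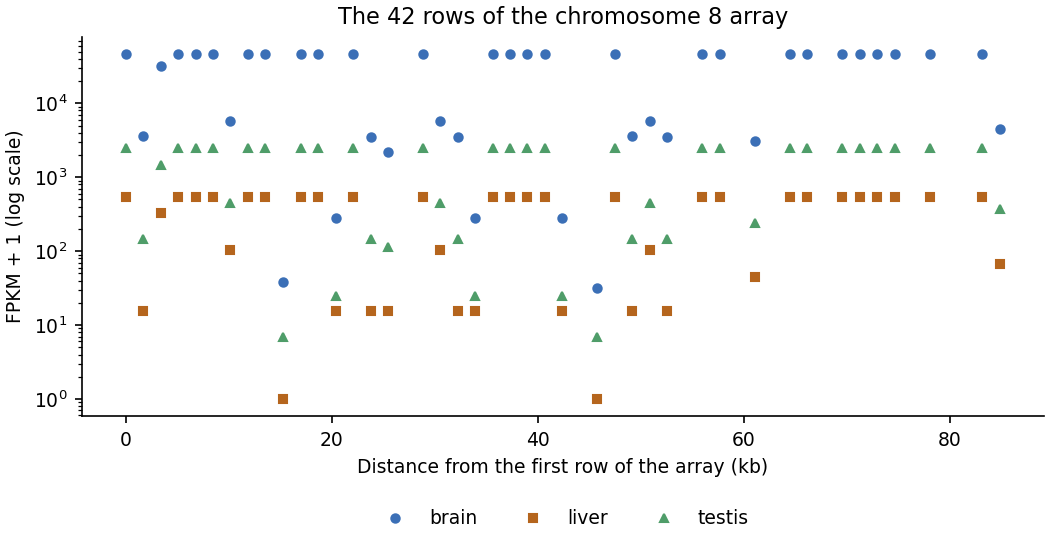
FPKM + 1 (log scale) of the 42 rows of the chromosome 8 array against the distance in kb from its first row, with 1 point per library and row. The 25 rows of equal value form flat lines at 46363 FPKM in brain, 2469.5 FPKM in testis and 545 in liver, and the remaining 17 rows lie under them in all libraries.

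Away from the array, 223 rows are annotated as ribosomal RNA, 124 of them named n-R5s, and 17 were above 0 in the brain library, 8 in that of liver and 18 in that of testis. The exception in level was n-R5s193, at 55537 FPKM in brain, 571 FPKM in liver and 2592 in testis on 5179, 114 and 249 fragments, ratios of 21.4-fold to testis and 97.2-fold to liver that lie near those of the array. How far reads of the array enter its value was not tested. n-R5s185 lies in an exon of Tmem38b on the same strand and behaved otherwise, with 81.1 FPKM in brain, 130.1 FPKM in liver and 165 in testis on 13.2, 45.3 and 27.7 fragments, and its intervals overlapped in all pairs of tissues. Tmem38b itself was at 5.53, 23.2 and 14.3 FPKM. n-R5s156 was at 223 FPKM in brain on 16 fragments and listed at 0 in liver and testis.

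For nucleolar RNAs the position in a longer gene went with detection. On GRCm38, 57 of the 937 members lie in an exon of another gene on the same strand, and 34 of these (59.6%, interval 45.8 to 72.4) had 10 fragments in some library. In an intron on the same strand it was 25 of 189 (13.2%, 8.75 to 18.9). On the opposite strand it was 2 of 173 in introns (1.16%) and 0 of 8 in exons (upper bound of the exact interval 36.9%), and outside any other gene 4 of 510 (0.784%). In all classes together, 38.5% of 117 matched members in a same-strand exon, 7.47% of 576 in a same-strand intron and 3.51% of 1338 outside a gene reached 10 fragments. Reads of the host transcript and of the short RNA in an exon cannot be told apart in these tables. The ACA 3 bases before the end stood in 41 of the 65 nucleolar rows with 10 fragments (63.1%) and in 184 of the 872 with fewer (21.1%), where 10.1% of all matched members had it.

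**Figure D4:**
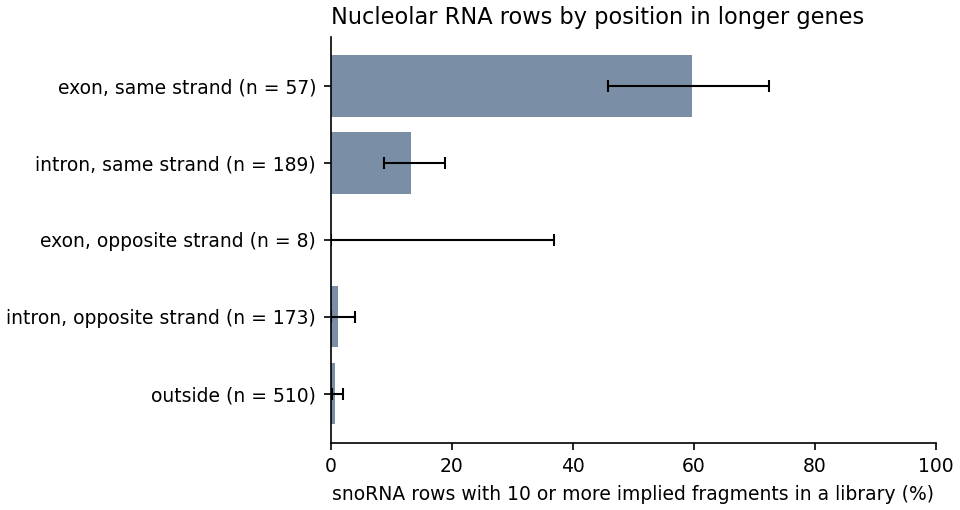
Share in percent of the nucleolar RNA rows with 10 or more implied fragments in at least 1 library, by position on GRCm38 against longer genes; bars start at 0, lines are exact 95% binomial intervals for counting error, and n is the number of rows. The bar for same-strand exons (59.6%) lies above that for same-strand introns (13.2%), and the others end at 1.16% or less. Rows that overlap an exon of any annotated transcript in whole or in part count as exon.

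Gm24451, an H/ACA member inside Nop56, a core protein gene of box C/D particles, was at 672 FPKM in brain, 13.9 FPKM in liver and 22.5 in testis on 203, 9 and 7 fragments. Nop56 itself was at 59.2, 12.3 and 14.6 FPKM. Of the 3 members inside Snhg12, a non-coding host gene, Snora61 was highest, at 379, 49.4 and 21.0 FPKM in brain, liver and testis, with Snora16a at 82.7, 9.65 and 5.73. Snora44 was at 204 FPKM in brain on 52.5 fragments and listed at 0 in the other libraries, where Snora61 had 28.3 fragments in liver and 5.79 in testis. Snhg12 was at 45.1, 12.2 and 10.01 FPKM. Snord22 was at 606 FPKM in brain, 35.6 FPKM in liver and 74.8 in testis.

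Of the described nucleolar RNAs, 6 were above 0 in brain alone, and the hosts of 4 of them were also low outside brain. Snora35, in an intron of Htr2c, the serotonin receptor gene, was at 114 FPKM on 28 fragments, and Gm25107, in an intron of Lrch2, at 218 FPKM on 56 fragments. Htr2c was at 7.26, 0 and 0.0636 FPKM in brain, liver and testis, and Lrch2 at 3.997, 0.0144 and 0.284. Gm25129 and Gm25187, both in Snhg11, were at 92.8 and 33.1 FPKM. These 4 were listed at 0 in liver and testis, and Snhg11 was at 211 FPKM in brain, 0.517 FPKM in liver and 0.854 in testis. The hosts of the other two were above 1 FPKM in all libraries: Snord90 was at 133 FPKM in brain on 14 fragments inside Rc3h2, which was at 6.03, 1.90 and 3.79 FPKM, and Snora44 lies in Snhg12. Gm22152, in an intron of Gm11775, did the reverse, with 139 FPKM on 31 fragments in testis and a listing at 0 in brain and liver, and Gm11775 was at 1.54 FPKM in testis and listed at 0 in both others.

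Of the 65 described nucleolar RNAs, 4 were not highest in brain: Gm22152, Snord118, Snord13 and Gm24945. Snord118, which has its own promoter and lies outside other genes, was at 635 FPKM in brain (interval 546 to 723), 669 FPKM in liver (607 to 731) and 161 in testis (117 to 204) on 207, 467 and 54 fragments. Its brain and liver intervals overlapped, and testis lay 3.95-fold below brain and 4.16-fold below liver. With equal FPKM sums brain would be lowest, at 0.573 times testis. Snord13, which also has its own promoter, was at 29.98, 70.01 and 43.6 FPKM on 2, 10 and 3 fragments, with overlapping intervals. Gm24945, in an intron of Shmt1 on the opposite strand, was at 44.3, 14.5 and 68.8 FPKM on 10, 7 and 16 fragments, and its brain and testis intervals overlapped. Snora65 in Rpl12 and Snora64 in Rps2, both ribosomal protein genes, were highest in brain, at 176, 96.0 and 43.5 FPKM and at 289.9, 44.6 and 121 FPKM. Of the 27 Cajal body RNAs, which guide modification of spliceosomal RNAs, 5 had 10 fragments: Gm25492 (89.6, 5.46 and 22.7 FPKM in brain, liver and testis), Gm23751 (59.0, 4.14 and 5.73) and Scarna3b (50.2, 0 and 5.13) were highest in brain, while Gm23119 (28.1, 20.3 and 32.2) and Gm26083 (6.62, 4.41 and 5.81) had overlapping intervals in all 3.

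The Y RNAs had the widest span between libraries. Rny1 was at 11728 FPKM in brain on 1309.9 fragments and at 78.2 in testis on 9, and Rny3 at 7561 on 435 and 84.4 on 5, and both were listed at 0 in liver. Brain exceeded testis 149.9-fold and 89.6-fold, and with equal FPKM sums still 21.8-fold for Rny1. Liver was the deepest library, with 2.14 times the mapped fragments of brain as read from the FPKM per fragment. Vaultrc5, the RNA of the vault particle, was at 41.4 FPKM in brain on 18 fragments and at 1.07 in liver on 1, and listed at 0 in testis. All 3 of these members with 10 fragments end in 4 T.

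Of 37 rows annotated as microRNA precursors that overlap, in whole or in part, an exon of another gene on the same strand, 5 (13.5%) had 10 fragments. The microRNA row highest in brain, Gm23935, is not among them. Gm26377, inside Eef1a1, a translation elongation factor gene, was at 23812 FPKM in brain, 38367 FPKM in liver and 23112 in testis on 2084, 7188 and 2083 fragments. Gm22133 lies in Ftl1, the ferritin light chain gene, and was at 2528, 21113 and 1056 FPKM, so that liver led by 8.35-fold over brain and further over testis. Ftl1 was at 79.2, 766 and 33.7 FPKM and Eef1a1 at 998, 1891 and 1144, the same order of tissues as Gm22133 and, for liver, as Gm26377. Mir686 in Psmb5, a proteasome subunit gene, was at 2028, 1438 and 1447 FPKM, and Mir719 at 192.7, 58.2 and 798, the only one of these rows called higher in testis than in brain. Whether these values belong to a precursor or to the transcript of the coding gene was not tested. Gm23935, in an intron of Zc3h7a on the opposite strand, was at 33721 FPKM in brain, 155 FPKM in liver and 416 in testis on 3144, 31 and 40.0 fragments.

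Processed pseudogenes, copies of spliced transcripts put back into the genome, moved with the coding genes whose sequence they share. Of the 39 with 10 fragments, 25 had at least 1 window of 76 bases in common with a transcript of a coding gene found in the tables, 22 different genes in all. The difference between tissues on log2(FPKM + 1) was within 1 of that of the coding gene for 24 of 25 in testis minus brain, 24 in testis minus liver and 23 in brain minus liver, with a median absolute gap of 0.20, 0.21 and 0.15. For 27 nucleolar rows sharing windows with a transcript of a coding gene the counts were 5, 16 and 5, and the gaps 2.48, 0.60 and 2.42. All annotated transcripts of a coding gene were searched, and whether the shared one codes for protein was not tested. These nucleolar rows were admitted mostly through brain, as given above, and the gaps in the pairs with brain are a description only. Among all matched members that could be searched, 91 of 148 with 10 fragments (61.5%) and 216 of 2389 with fewer (9.04%) shared a window with another gene.

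Gm14287 was the highest pseudogene, at 24712 FPKM in brain, 3591 FPKM in liver and 12615 in testis on 3632, 1130.1 and 1910.02 fragments. It shares 33 of 42 windows with Ywhaz, a 14-3-3 gene, which was at 725, 110 and 448 FPKM, so the level per length of the short row was far above that of the gene while the differences on the log2(FPKM + 1) scale were alike (-0.97 and -0.69 for testis minus brain). Gm15148 and Gm12013 followed Rpl39, a ribosomal protein gene that was low in testis: 2788, 2828 and 489.6 FPKM and 1420.2, 1501 and 260.5 FPKM, against 137, 133 and 22.5 for Rpl39 in brain, liver and testis. Gm14491 followed Gapdh, the glycolytic enzyme gene, at 1028, 456 and 57.8 FPKM, and Gm16550 followed Dnajc9, a chaperone gene, at 864, 137 and 4261 FPKM against 21.8, 3.76 and 85.3. Gm14303 was at 3033, 1253 and 3319 FPKM and shares all its 96 windows with Rps29, which was at 174, 70.1 and 166 FPKM. The share of a pseudogene's value that came from reads of its coding gene was not tested.

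**Figure D5:**
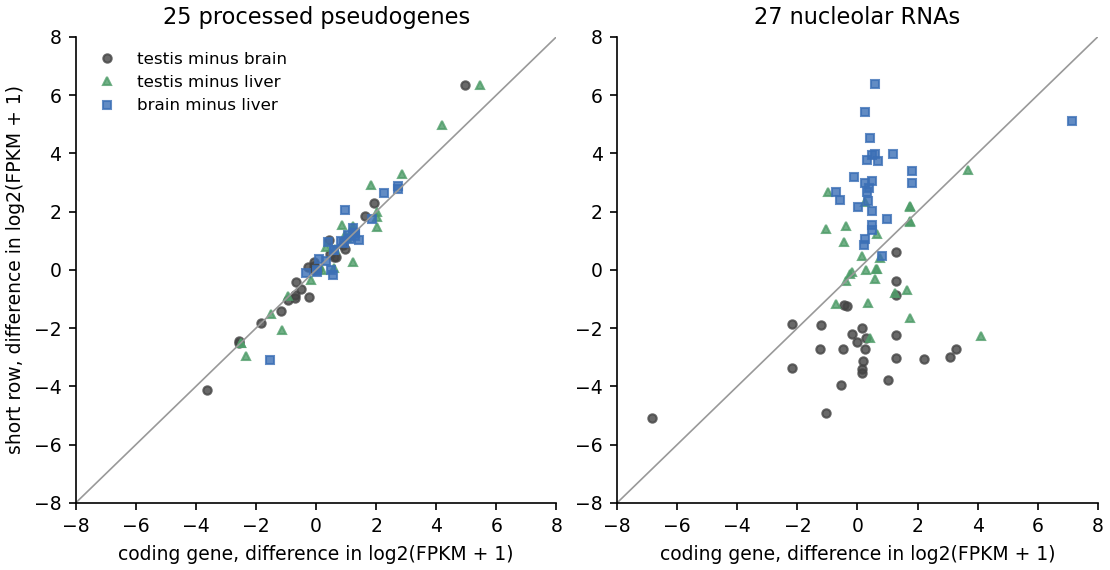
Difference between tissues in log2(FPKM + 1) of a short row (vertical axis) against that of the coding gene with which it shares a window of 76 bases (horizontal axis), for 25 processed pseudogenes on the left and 27 nucleolar RNAs on the right; colours mark the tissue pairs and the line marks equal differences. The pseudogenes lie along the line, with a median absolute gap of 0.15 to 0.21, and the nucleolar RNAs off it in the pairs with brain (2.42 to 2.48).

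Some pseudogenes were called for testis or for liver. Gm12785 was at 213 FPKM in testis on 222 fragments, against 5.94 in brain and 1.85 in liver. Gm14502 was at 279 FPKM in testis on 34 fragments, 8.45 in brain on 1 fragment and 0 in liver, and Gm14870 at 44.4 FPKM in testis on 30 fragments. Gm13797 was at 79.5 FPKM in testis on 14 fragments and listed at 0 elsewhere. Gm17366 was at 160.1 FPKM in brain and 162 in testis but at 0.613 in liver on 2 fragments. Gm6091, which shares 32 of 90 windows with the thymidine kinase gene Tk1, was the pseudogene called higher in liver than in brain, at 17.7 FPKM on 32 fragments against 1.19 on 1.

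In brain and testis the highest levels of all members belonged to rows without a match, and in liver to Gm26377 and Gm22133. ENSMUSG00000089526 (chr2:5300305-5300434, 130 bp, inside Camk1d) was at 769354 FPKM in brain, 11391 FPKM in liver and 65263 in testis on 205900, 6526 and 17992 fragments, and ENSMUSG00000087778 on chromosome 18 at 320267, 4129 and 26379 FPKM. Brain exceeded testis 11.8-fold and 12.1-fold, ratios close to the 11.1-fold of Rnu2-10, and with equal FPKM sums 1.71-fold and 1.76-fold. Together with n-R5s193 they held 8.13% of the whole FPKM sum of brain. ENSMUSG00000083696 on chromosome 3 was at 1269 FPKM in brain and 186 in testis on 73 and 11 fragments and listed at 0 in liver, and ENSMUSG00000046088 was at 49.3 FPKM in testis on 50.0 fragments and listed at 0 in both others.

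Genes of the proteins that bind these RNAs were called most in testis against liver. Of 44 such genes found, chosen by role, testis against brain gave 2 higher and 0 lower by the same rule (4.55%, where 18.2% of all rows were called). Testis against liver gave 13 higher and 0 lower (29.5%, against 19% of all rows), and brain against liver 4 and 0 (9.09%, against 11.9%), with median differences of 0.24, 1.32 and 0.91 on log2(FPKM + 1). Over all rows at 1 FPKM these medians were 0.11, 1.18 and 0.91. The called shares of all rows count rows listed at 0, whereas every partner gene was at 1 FPKM in either library. Of all rows so filtered, 6706 of 19124, 7006 of 17503 and 4394 of 16034 were called in these pairs. The share of partner genes called was below these shares in each pair. The 2 higher in testis were Lsm2, a subunit of the ring that binds U6, at 94.2 FPKM against 5.38 in brain and 5.50 in liver, and Coil, the coilin gene of the Cajal body, at 74.8 against 5.66 and 0.878. The 4 higher in brain than in liver were Lsm3 (20.4 and 4.33 FPKM), Snrnp25 of the minor spliceosome (23.4 and 3.10), Nop56 (59.2 and 12.3) and Nhp2l1, a protein of U4 and box C/D particles (80.4 and 18.0). For the Sm and LSm genes the median was 33.5 FPKM in brain, 9.08 FPKM in liver and 47.3 in testis, and for the genes of 5S partners, among them Rpl5 and Rpl11, 145, 99.7 and 88.4. Scaled to the protein-coding FPKM sum, testis against brain gave 2 partner genes higher and 2 lower and brain against liver 16 and 0. Scaled by the median ratio, testis against liver gave 7 higher and 0 lower, and brain against liver gave 0.

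Of the markers checked against the labels, Snap25, Alb and Prm2 were each highest in their own tissue: Snap25 was at 933 FPKM in brain, 0.0350 FPKM in liver and 0.0864 in testis, Alb at 3.73, 20975 and 3.79, and Prm2 at 9.56, 0.15 and 12924. Ttr, a liver marker that the choroid plexus also makes, was at 1625 FPKM in brain. Hba-a1, a marker of blood, was at 152 FPKM in brain, 52.9 FPKM in liver and 3.53 in testis. Alas2, another blood marker, went the other way, at 1.004 in brain, 41.2 in liver and 6.91 in testis, with the estimates of liver and testis marked as failed, and Hbb-b1 was not found. The part of blood in the levels of the members was not tested. Implied fragments over all rows came to 31795933 (brain), 86360155 (liver) and 40891888 (testis). The estimates of 5 rows in brain, 5 in liver and 2 in testis among the members were not marked OK, and they were kept at their listed values.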

How the data were processed

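Strand-specific libraries of polyadenylated RNA were measured, 1 each of brain, liver and testis. Per the file headers, the deposited tables give FPKM per gene with lower and upper bounds and a status. TopHat 1.4.0, Bowtie 0.12.5, Cufflinks 2.0.0 and mm9 are named in the submitters' processing notes. For the annotation, the treatment of reads that match several loci and the level of the bounds, the sources used here give nothing.

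Rows were joined by identifier and locus, and 1 was added to starts, since 37 of 38 mitochondrial rows then had the reference coordinates. Implied fragments were the square of 2 times FPKM over the upper half-width of the deposited interval. GENCODE M21 (GRCm38), another build, was used by identifier for symbol, class, strand, sequence and exon or intron position. It matched 2542 of 3240 members, 2484 with the same length. RefSeq was used for neighbouring genes only.

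Members were called at a 4-fold difference on log2(FPKM + 1) with intervals apart. The calling code was tested on simulated data. Shares carry exact 95% binomial intervals. Identity was 1 minus edit distance over the longer length. Named members were drawn from the 3 highest per class and library with 10 fragments and the 5 largest called differences per pair and direction. Further sources were up to 20 with the most fragments in their lowest library, and the 3 with the most fragments per library. Not all of these are described. Left out, among others, are ENSMUSG00000076130, the largest called difference lower in testis than in brain, and the spliceosomal row Gm22235, the largest lower in brain than in liver. The U1, U11 and U12 rows, the lower U2 copies, members of shared hosts, the rows off the slope and other members were chosen after their values were seen. The members and lists were chosen with earlier results of these data known. Python 3.11.15, pandas 2.3.3, numpy 2.4.6, scipy 1.17.1, edlib 1.3.9.post1 and matplotlib 3.10.9 were used. Scaling, pseudocount, minimum, fold and span alternatives are under the dependence on processing. Sequences of ribosomal RNA rows are not reported here.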

Additional observations from a re-analysis of the deposited data

How the results depend on the processing

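No paired analysis was possible because each tissue has 1 library. Of 146 alternatives over 34 results, 96 left a count within 1.5 times its value or a median unchanged, and 50 moved. Any change of a share or median counted as a move. For calls only the total was compared, so a turn of direction did not count as a move. By the median member, testis against liver went from 117 higher and 15 lower to 46 and 48. Brain against liver went from 189 and 6 to 54 and 90. Scaling by the median member, counting equal-valued sets once, leaving out the chromosome 8 array and the scalings of partner genes were chosen after seeing the data. At a minimum of 100 FPKM, 157 members were detected in brain, 68 in liver and 107 in testis, and at 10 FPKM 160 in liver; at 30 fragments 82 remained in liver. Members called in testis against brain came to 76 with a pseudocount of 100, 359 by size alone, 98 with equal FPKM sums, 101 by the median member, 46 among rows of 150 bp or more and 88 without members inside a longer gene. In testis against liver they came to 16 with a pseudocount of 100, 75 at 8-fold, 271 by size alone, 78 at under 150 bp and 54 at 150 bp or more. In brain against liver they came to 79 with a pseudocount of 100, 351 by size alone, 47 at 150 bp or more and 101 without members inside a longer gene. Class medians over all members were 0, since most are listed at 0; among members at 1 FPKM in either library they were, for testis minus brain, testis minus liver and brain minus liver, -2.22, 1.78 and 2.96 in all, -1.86, 2.46 and 3.51 for spliceosomal, -2.55, 0.28 and 2.91 for nucleolar and -0.19, 2.80 and 3.20 for ribosomal RNAs. Without the 3 highest members, the share of FPKM was 12.4% in brain, 3.56% in liver and 6.93% in testis and that of fragments 1.58%, 0.0428% and 0.132%; without the array they were 11.8%, 7.69% and 9.22%, and 1.68%, 0.0577% and 0.159%. On the same strand, 581 of 1243 members and 211 of 369 nucleolar RNAs lay inside a longer gene. Partner genes called were 4 in testis against brain and 16 in brain against liver with the protein-coding sum, and 7 in testis against liver and 0 in brain against liver by the median ratio. By construction fewer rows were counted in the span, inside-gene and fragment alternatives; for the other moves the cause was not tested. Depth limits members with few fragments most: 164 of 435 above 0 in brain, 126 of 321 in liver and 166 of 378 in testis rest on 1 to 3.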
